A study of Mus musculus with 18 samples.

Results

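The genes described here are 9 genes of programmed cell death and mitophagy, chosen by name: Bnip3, Bnip3l (which encodes Nix), Bcl2, Bcl2l1, Bcl2l11, Bax, Bak1, Bbc3 and Mcl1. They are 9 of the 55450 genes in the count table, found there by Ensembl identifier, and all 9 were among the 16270 genes with enough counts to be tested. Messenger RNA was measured in left ventricle (LV) of male FVB/N mice in 4 groups: wild-type (WT) littermates on control diet (CD, n = 4), WT on ertugliflozin (ERTU, n = 5), Gαq mice on CD (n = 5) and Gαq mice on ERTU (n = 4). Gαq mice carry a transgene that overexpresses Gαq, the G protein subunit encoded by Gnaq, in the heart only. ERTU, an inhibitor of the sodium-glucose transporter SGLT2, was given in the chow at 0.5 mg/g for 16 weeks from 4 weeks of age, so that all hearts were taken at 20 weeks. Libraries are named by their group and by the number in the count table, which runs over the whole table.

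The BCL2 family decides whether the outer mitochondrial membrane stays closed. BCL2, BCL-XL (Bcl2l1) and MCL1 keep the pore-forming proteins BAX and BAK (Bak1) inactive, and the BH3-only proteins BIM (Bcl2l11) and PUMA (Bbc3) bind the survival proteins and release the pore formers. BNIP3 and Nix are related proteins of the outer mitochondrial membrane that act both as death factors and as mitophagy receptors, which bring damaged mitochondria to the autophagosome. Nix has been studied as a death factor in hypertrophied hearts with Gαq signalling, which is why its level was also set beside that of Gnaq.

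Promoter sequence for 8 of the 9 genes was held in RefSeq (GRCm38.p6), with 13 start sites in all and none for Bnip3l. Shown are the 250 bases before the start of Bnip3, because Bnip3 is a known target of hypoxia-inducible factor (HIF), and of Bcl2, because Bcl2 had the largest difference between genotypes. Both are written 5′ to 3′ on the minus strand, and capitals mark the HIF core ACGTG on either strand. The Bnip3 window is chr7:138909507-138909756 and the Bcl2 window is chr1:106714291-106714540.
Bnip3: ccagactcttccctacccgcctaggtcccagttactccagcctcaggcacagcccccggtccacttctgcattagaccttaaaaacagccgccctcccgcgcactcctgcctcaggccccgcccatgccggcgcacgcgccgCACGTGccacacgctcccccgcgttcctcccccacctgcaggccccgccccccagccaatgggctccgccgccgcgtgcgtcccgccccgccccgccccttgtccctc
Bcl2: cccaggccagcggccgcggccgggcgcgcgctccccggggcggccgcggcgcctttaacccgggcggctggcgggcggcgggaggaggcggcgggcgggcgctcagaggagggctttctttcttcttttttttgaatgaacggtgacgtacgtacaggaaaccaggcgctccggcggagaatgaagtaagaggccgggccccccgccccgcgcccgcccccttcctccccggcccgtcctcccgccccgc
In Bnip3 the core was read on both strands at a single place, starting 108 and 107 bases before the start, since its 2 matches overlap. In Bcl2 there was none. The core was also read once, on both overlapping strands, in Bax and in 1 of the Bbc3 windows, and 16.6% of all 32851 windows of this length held it. The FoxO motif GTAAACA was found in 1 window of Bcl2l11 and 1 of Bbc3 (3.17% of all windows), and the glucocorticoid receptor motif ACANNNTGT in 1 window of Bcl2l1 (5.83% of all windows). A match describes the letters and is no evidence of binding.

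Total counts per library ran from 15383566 to 20908363, and each of the 9 genes had at least 42 counts in every library. Values below are library-scaled counts (CPM, after TMM scaling), and fold changes, standard errors (SE) and p-values come from the quasi-likelihood test of edgeR, adjusted over all 16270 genes. A gene is called where the adjusted p is under 0.05. The transgene was seen in every library labelled Gαq: Gnaq was 1641 to 11672 CPM in the 9 Gαq libraries and 45.5 to 230 CPM in the 9 WT libraries. Gαq CD 10 was the lowest Gαq library, and Gαq ERTU libraries lay between 2236 and 5207 CPM. Bulk tissue cannot tell fewer cells of a type from less RNA per cell.

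The 9 genes differed widely in level per kilobase of exon. In WT CD the order was Bnip3 (98.4 ± 20.4 CPM per kilobase, SD, n = 4), Mcl1 (89.0 ± 3.72), Bcl2l1 (17.4 ± 7.81), Bnip3l (14.4 ± 0.865), Bax (11.65 ± 1.323), Bak1 (5.76 ± 0.488), Bcl2l11 (2.44 ± 0.194), Bbc3 (1.94 ± 0.561) and Bcl2 (1.56 ± 0.294). The ranges of Bnip3 and Mcl1 overlapped, as did those of Bcl2l11 and Bbc3, and of Bbc3 and Bcl2. The range of Bcl2l1 (7.93 to 24.9) took in those of both Bnip3l and Bax (10.4 to 12.9). The order within each of these overlapping pairs is not resolved by the libraries. In Gαq CD, Bcl2 stood seventh, at 5.63 ± 1.17 CPM per kilobase (n = 5), above Bbc3 at 2.48 ± 0.197 with no overlap, and Bcl2l11 stood last at 1.67 ± 0.350. Of the summed level of the survival genes Bcl2, Bcl2l1 and Mcl1 per kilobase, Mcl1 made up 82.7% ± 6.32 in WT CD and 83.2% ± 2.69 in Gαq CD. The share of Bcl2 in that sum was 1.46% ± 0.341 in WT CD, 1.31% ± 0.393 in WT ERTU, 5.56% ± 1.49 in Gαq CD and 3.73% ± 1.28 in Gαq ERTU.

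**Figure D1:**
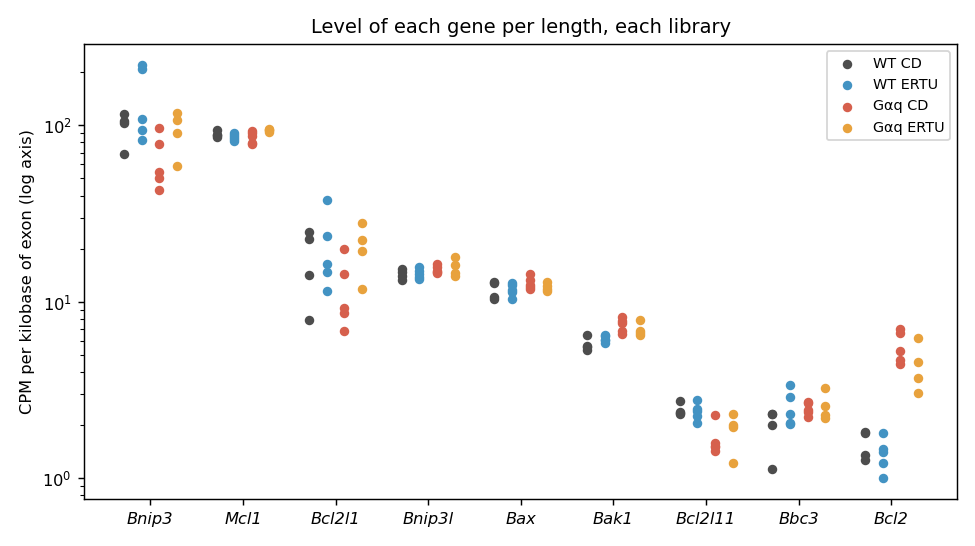
Level of each gene in CPM per kilobase of exon (log axis), 1 point per library, coloured by group and ordered by the WT CD mean. Bnip3 and Mcl1 are highest, and Bcl2 has the lowest WT CD mean (1.56) but a Gαq CD mean of 5.63.

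The comparison of genotypes asked which of these genes differ in Gαq hearts. With diet in the model, 4 of 9 were called, against 19.6% of all genes tested: Bcl2 and Bak1 rose (9.72% of all genes were called higher in Gαq), and Bcl2l11 and Bnip3 fell (9.92% were called lower). Bnip3l, Bcl2l1, Bax, Bbc3 and Mcl1 were not called. The median log2 fold change of the 9 genes was 0.092, beside 0.0038 over all genes, and the median absolute log2 fold change was 0.27 beside 0.16. On CD alone 3 of 9 were called (Bcl2, Bak1 and Bcl2l11, against 8.1% of all genes), and on ERTU alone only Bcl2 (against 8.17%). The 2 comparisons use different libraries.

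**Figure D2:**
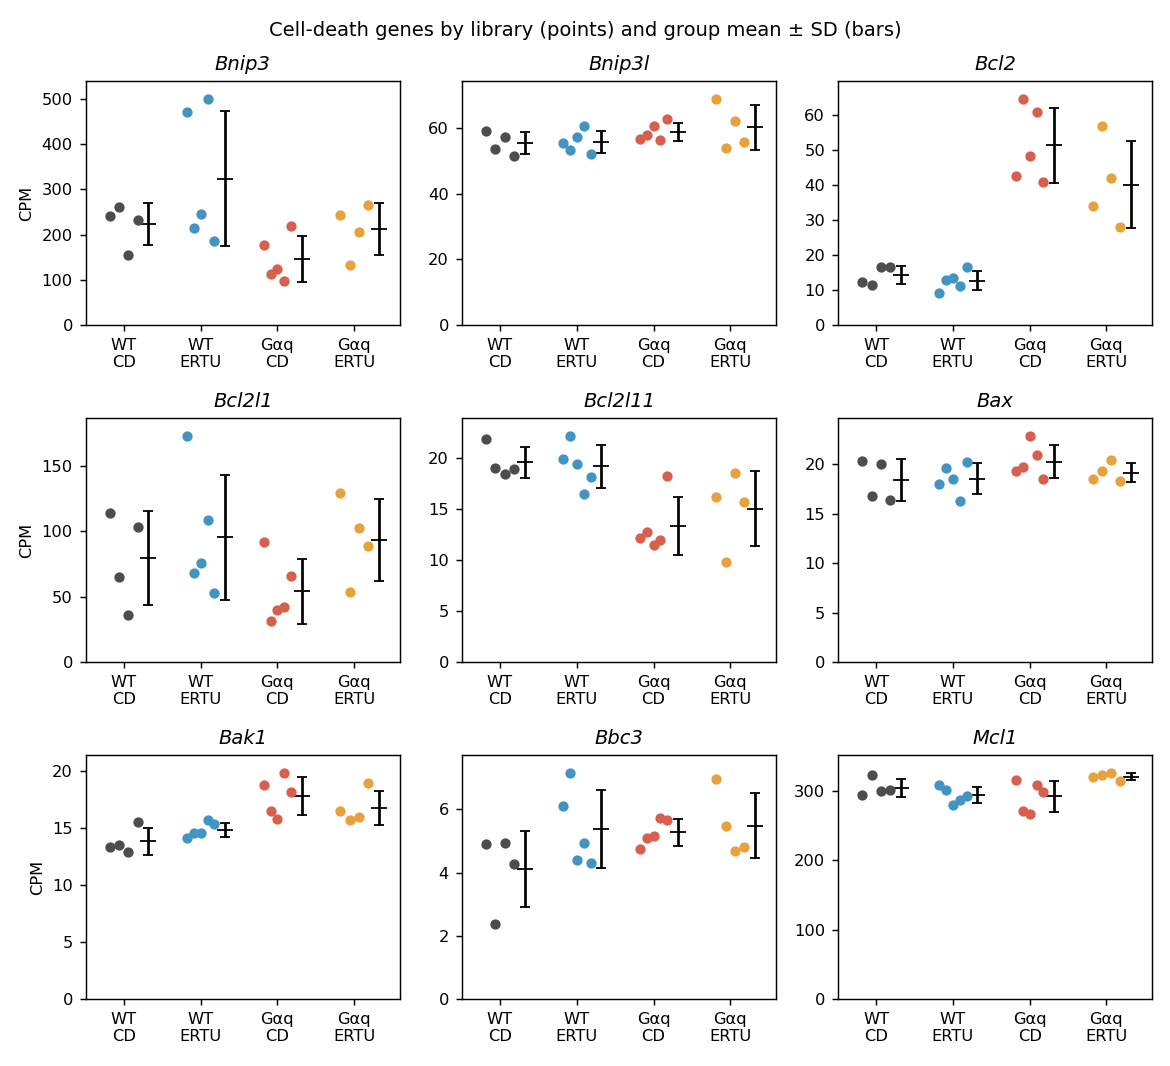
CPM of each gene on a linear axis from 0, 1 point per library in the 4 groups, with the group mean ± SD beside the points. Bcl2 in Gαq libraries (28.03 to 64.65 CPM) lies above every WT library (9.17 to 16.7 CPM), whereas the Bnip3l groups overlap.

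Bcl2 (ENSMUSG00000057329, chr1:106538178-106714274, minus strand, GRCm38), the founding survival gene of the family, gave the largest difference of the 9. It was 12.5, 11.6, 16.7 and 16.6 CPM in WT CD 1, 2, 4 and 5, and 9.17, 12.9, 13.5, 11.2 and 16.6 CPM in WT ERTU 11 to 15. In Gαq CD 6 to 10 it was 42.7, 64.7, 48.4, 60.9 and 41.0 CPM, and in Gαq ERTU 16, 17, 18 and 20 it was 33.94, 56.82, 42.03 and 28.03 CPM. No Gαq library overlapped a WT library. Bcl2 was 3.38-fold higher in Gαq with diet in the model (log2 fold change 1.76 ± 0.14, SE, adjusted p = 3.74e-08), and ranked 28th of all genes by p. The log2 fold change was 1.85 ± 0.21 on CD (adjusted p = 1.26e-05) and 1.67 ± 0.20 on ERTU (adjusted p = 3.86e-05). The ratio of Bax to Bcl2 per kilobase, a description of the pair, was 7.65 ± 1.63 in WT CD, 8.74 ± 1.61 in WT ERTU, 2.35 ± 0.438 in Gαq CD and 2.94 ± 0.755 in Gαq ERTU, with no overlap between genotypes.

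Markers of other cell types also differed by genotype. Of 8 fibroblast markers, 6 rose in Gαq and none fell (75% called, beside 19.6% of all genes, 9.72% called higher), and their summed level was 1508 to 3047 CPM in WT libraries and 2847 to 4235 CPM in Gαq libraries. Of the 5 lymphocyte markers tested, out of 8 listed, 1 rose (Cd79b, a B-cell receptor chain, log2 fold change 1.79 ± 0.28), while Cd3e, Cd8a and Ms4a1 were too low to test. The summed lymphocyte level was 1.74 to 3.65 CPM in WT and 2.77 to 8.32 CPM in Gαq libraries. Lymphocytes are known to express Bcl2. Of 10 cardiomyocyte markers 4 fell (Ryr2, Myl3, Myh6 and Tnni3, that is 40% beside 9.92% of all genes called lower), with sums of 73152 to 110296 CPM in WT and 72720 to 97707 CPM in Gαq. The other 6 were not called, and 3 of the 10 (Myoz2, Myl2 and Tnnt2) had a positive estimate. In the other lists, Cdh5 and Tie1 of 7 endothelial markers (28.6%) and Abcc9 and Rgs5 of 6 smooth muscle and pericyte markers (33.3%) fell, and none of the 8 macrophage, 5 tested red blood cell, 5 tested fat or 4 tested atrial markers was called. The estimate was positive, though not called, for 1 of the 7 endothelial and 2 of the 6 smooth muscle and pericyte markers. Of 3 tested skeletal muscle markers Myl1 and Tnnt3 rose and Ckm fell. The part of these markers in the differences of the 9 genes was not tested.

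Bcl2l11, which encodes the BH3-only death activator BIM (ENSMUSG00000027381, chr2:128126038-128162547, plus strand), fell. Its level was 21.91, 19.03, 18.52 and 18.96 CPM in WT CD 1, 2, 4 and 5, and 20.0, 22.2, 19.4, 16.5 and 18.2 CPM in WT ERTU 11 to 15. In Gαq CD 6 to 10 it was 12.23, 12.78, 11.48, 12.04 and 18.32 CPM, and in Gαq ERTU 16, 17, 18 and 20 it was 16.2, 9.87, 18.5 and 15.7 CPM. The CD groups did not overlap, although Gαq CD 10 nearly reached the lowest WT CD library, and the ERTU groups overlapped. With diet in the model Bcl2l11 was 0.732 times its WT level (log2 fold change -0.45 ± 0.11, adjusted p = 5.87e-03). On CD the log2 fold change was -0.55 ± 0.16 (adjusted p = 0.0351), and on ERTU it was -0.35 ± 0.16 (adjusted p = 0.197). The CD value was -0.69 (adjusted p = 0.0055) without Gαq CD 10, and it was no longer called without any one of the other 8 libraries of the comparison (adjusted p from 0.0505 to 0.121).

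Bak1 (ENSMUSG00000057789, chr17:27019810-27029009, minus strand), which encodes a pore former that sits in the outer mitochondrial membrane, rose by a small amount. It was 13.4, 13.6, 12.9 and 15.6 CPM in WT CD 1, 2, 4 and 5, and 14.2, 14.6, 14.6, 15.7 and 15.3 CPM in WT ERTU 11 to 15. In Gαq CD 6 to 10 it was 18.8, 16.5, 15.8, 19.8 and 18.2 CPM, and in Gαq ERTU 16, 17, 18 and 20 it was 16.51, 15.69, 15.99 and 18.98 CPM. Groups did not overlap on either diet, but on ERTU they nearly touched, with 15.68 CPM in the highest WT library and 15.69 CPM in the lowest Gαq library. The log2 fold change was 0.27 ± 0.07 with diet in the model (adjusted p = 0.00715) and 0.36 ± 0.09 on CD (adjusted p = 0.0205), and on ERTU it was 0.18 ± 0.09 (adjusted p = 0.288). On CD it was not called without WT CD 1, 2 or 4 or Gαq CD 9 (adjusted p from 0.0558 to 0.0732). Of the exon bases of Bak1, 18.2% overlap exons of Ggnbp1 on the opposite strand, and 7.35% overlap those of another entry of that name. That other entry (ENSMUSG00000117819) averaged 1.53 CPM over all libraries. Ggnbp1 (ENSMUSG00000048731) averaged 13.1 and 14.5 CPM in WT CD and WT ERTU and 9.63 and 10.5 CPM in Gαq CD and Gαq ERTU. The methods of the study state that pairs were counted on the same strand.

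Bnip3 (ENSMUSG00000078566, chr7:138890836-138909519, minus strand) had the largest SD of the 9 in CPM in every group. It was 241, 262, 156 and 233 CPM in WT CD 1, 2, 4 and 5, and 470, 214, 247, 499 and 187 CPM in WT ERTU 11 to 15. In Gαq CD 6 to 10 it was 177, 114, 124, 97.2 and 218 CPM, and in Gαq ERTU 16, 17, 18 and 20 it was 243, 134, 205 and 265 CPM. WT ERTU 11 and 14 stood far above the rest, and the genotypes overlapped on both diets. With diet in the model Bnip3 was 0.655 times its WT level (log2 fold change -0.61 ± 0.20, adjusted p = 0.0378). The estimate was -0.61 ± 0.29 on CD (adjusted p = 0.239) and -0.61 ± 0.30 on ERTU (adjusted p = 0.238). The call was narrow: it was lost by DESeq2 (adjusted p = 0.0528), by limma voom with sample quality weights (log2 fold change -0.46, adjusted p = 0.0855), and in 10 of the 18 fits that left out 1 library (adjusted p from 0.0552 to 0.0750), namely without WT CD 1, 2 or 5, Gαq CD 7, 8 or 9, WT ERTU 11 or 14, or Gαq ERTU 17 or 18.

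Bnip3l (ENSMUSG00000022051, chr14:66985239-67008877, minus strand) varied little, between 51.6 and 68.8 CPM over all 18 libraries. It was 59.0, 53.8, 57.2 and 51.6 CPM in WT CD 1, 2, 4 and 5, and 55.6, 53.2, 57.3, 60.6 and 52.1 CPM in WT ERTU 11 to 15. In Gαq CD 6 to 10 it was 56.8, 57.8, 60.8, 56.3 and 62.8 CPM, and in Gαq ERTU 16, 17, 18 and 20 it was 68.8, 53.9, 62.2 and 55.8 CPM. All groups overlapped. The log2 fold change by genotype was 0.10 ± 0.06, with a 95% confidence interval of -0.019 to 0.218 (adjusted p = 0.245), that is, an estimate of 1.07-fold. On CD it was 0.089 ± 0.083 (95% confidence interval -0.085 to 0.262), and on ERTU 0.110 ± 0.083 (-0.063 to 0.283).

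Near-identical copies bear on Bnip3 and Bnip3l, since only uniquely aligned pairs were counted. Bnip3l shares 99.4% of 1131 aligned bases with the transcribed pseudogene Bnip3l-ps on chromosome 12, which held 22.8% to 31.0% of the sum of the pair. Bnip3l-ps itself was called by genotype, with a log2 fold change of 0.22 ± 0.06 (adjusted p = 0.0168), from 17.5 ± 0.936 CPM in WT CD and 19.2 ± 0.875 in WT ERTU to 20.6 ± 2.25 in Gαq CD and 22.2 ± 1.69 in Gαq ERTU. Summed with it, Bnip3l gave 0.13 ± 0.05 (95% confidence interval 0.019 to 0.240, adjusted p = 0.094), not called. Reads of the gene and the copy cannot be told apart where they are identical. Copies of Bnip3 held 13.0% to 15.3% of its sum, chiefly Gm16439 (98.9% of 564 aligned bases) and Gm6532 (98.6% of 559), which also fell (log2 fold change -0.56 ± 0.19 and -0.78 ± 0.22). Bnip3 summed with its copies gave -0.61 ± 0.20 (adjusted p = 0.0366).

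The remaining genes were not called by genotype. Bcl2l1 (ENSMUSG00000007659, chr2:152780668-152831728), which encodes BCL-XL, varied widely within every group: it was 114, 64.9, 36.4 and 103 CPM in WT CD 1, 2, 4 and 5, and 172.4, 67.77, 75.43, 108.7 and 52.96 CPM in WT ERTU 11 to 15. In Gαq CD 6 to 10 it was 91.8, 31.2, 39.8, 42.4 and 65.5 CPM, and in Gαq ERTU 16, 17, 18 and 20 it was 129, 53.9, 102 and 88.7 CPM. All 4 groups overlapped, and the genotype estimate had a wide interval (log2 fold change -0.29 ± 0.26, 95% confidence interval -0.83 to 0.25). Bax (ENSMUSG00000003873, chr7:45461697-45466898) was 16.3 to 20.3 CPM in WT and 18.2 to 22.8 CPM in Gαq libraries (0.092 ± 0.067, interval -0.046 to 0.230). Bbc3 (ENSMUSG00000002083, chr7:16308393-16318205), the lowest of the 9 in CPM, was 2.39 to 7.13 CPM in WT and 4.69 to 6.95 CPM in Gαq (0.19 ± 0.14, interval -0.11 to 0.48). Mcl1 (ENSMUSG00000038612, chr3:95658788-95663176) was 279 to 323 CPM in WT and 266 to 325 CPM in Gαq (0.032 ± 0.055, interval -0.082 to 0.147).

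**Figure D3:**
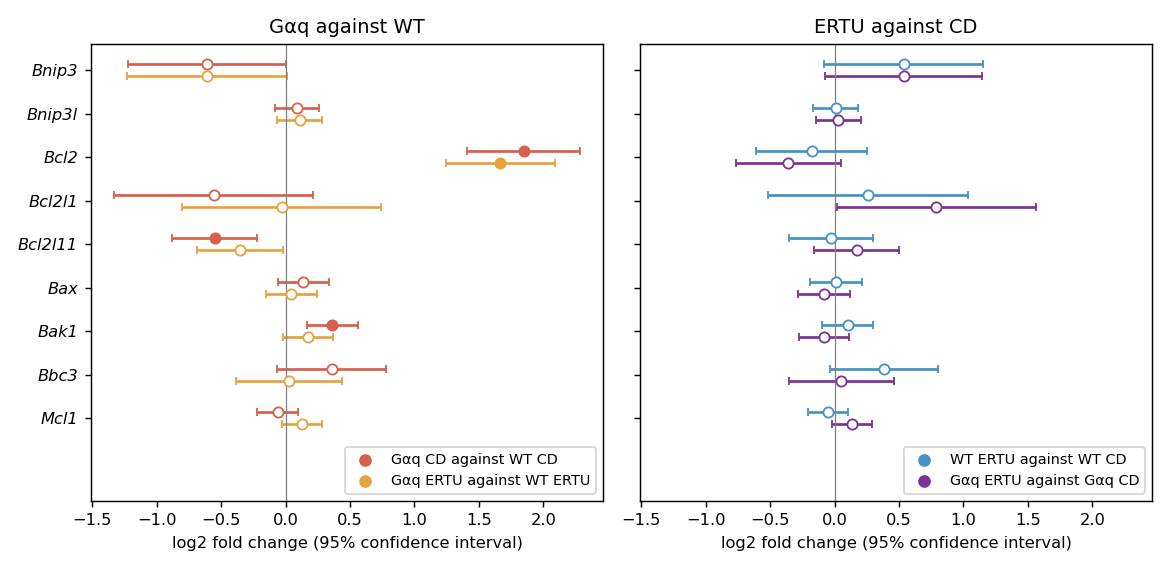
Log2 fold change of each gene with its 95% confidence interval, for Gαq against WT on each diet (left) and ERTU against CD in each genotype (right); filled points have an adjusted p under 0.05. Bcl2 is filled on both diets, Bak1 and Bcl2l11 on CD only, and no gene is filled for ERTU.

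The comparison of diets asked whether ERTU changed these genes. None of the 9 was called by diet (0% of all genes were called by edgeR, 2 genes by DESeq2 and 0 by voom), by ERTU in WT (0%) or by ERTU in Gαq (0.00615%, 1 gene). At an unadjusted p under 0.05 there was 1 of 9 by diet, 0 by ERTU in WT and 1 by ERTU in Gαq, against 1252, 365 and 1240 of all 16270 genes. The gene at that level by diet was Bnip3, with a log2 fold change of 0.54 ± 0.20 (95% confidence interval 0.11 to 0.96, adjusted p = 0.639) and near-equal estimates of 0.54 ± 0.30 in WT and 0.54 ± 0.29 in Gαq. The gene in Gαq alone was Bcl2l1, at 0.79 ± 0.37 (95% confidence interval 0.019 to 1.56, adjusted p = 0.653), while the WT estimate was 0.26 ± 0.37. Bcl2 was -0.36 ± 0.20 with ERTU in Gαq (95% confidence interval -0.77 to 0.05) and -0.18 ± 0.21 in WT. Bnip3l was 0.030 ± 0.083 with ERTU in Gαq (95% confidence interval -0.14 to 0.20).

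Mcl1 with ERTU in Gαq was 0.13 ± 0.07 (95% confidence interval -0.022 to 0.292, adjusted p = 0.656). It was 316, 271, 266, 308 and 298 CPM in Gαq CD and 320, 323, 325 and 314 CPM in Gαq ERTU, so that the highest CD library lay within the ERTU range. The interaction, which compares the size of the ERTU effect in Gαq with that in WT, called none of the 9 (0% of all genes) and gave none at an unadjusted p under 0.05, against 313 of all genes. DESeq2 and voom also called no gene for the interaction. Its interval was -0.22 to 0.27 for Bnip3l and -0.56 to 1.62 for Bcl2l1, so the upper limit for the latter exceeds a log2 difference of 1. Gnaq itself was lower with ERTU in Gαq by an estimate of -1.22 ± 0.52 (95% confidence interval -2.30 to -0.13, unadjusted p = 0.0294, adjusted p = 0.653). Its mean was 7473 CPM in Gαq CD and 3216 CPM in Gαq ERTU. The part of the Gnaq level in the ERTU estimates in Gαq was not tested.

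Bnip3l was then set beside the level of Gnaq in the 9 Gαq libraries, where Gnaq spanned 1641 to 11672 CPM. The highest Bnip3l library, Gαq ERTU 16, had 2392 CPM of Gnaq, and the library with most Gnaq, Gαq CD 9, had 56.3 CPM of Bnip3l. In log2 CPM, Pearson's r was -0.566 (exact permutation p = 0.109, adjusted over all genes 0.335) and Spearman's rho was -0.50 (exact permutation p = 0.178). Without the pair of libraries farthest from the median Gnaq level, Gαq CD 10 and Gαq ERTU 18, r was -0.445 (exact permutation p = 0.331). With both measures centred on their diet mean, r was -0.597 (exact permutation p = 0.0135, adjusted over all genes 0.233), a scale on which 15.8% of all genes had a p under 0.05 and none passed adjustment. That scale has 2880 pairings and no exact permutation p below 3.47e-04. A gene could thus pass adjustment only together with many others of similarly small p. The slope was -0.061 log2 units of Bnip3l per log2 unit of Gnaq. With Bnip3l-ps added in, r was -0.622 (exact permutation p = 0.0722). Bnip3l was not higher where Gnaq was higher.

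Of the other 8 genes, 4 had an exact permutation p under 0.05 for r with Gnaq, a level reached by 21.6% of the 16269 genes that were set beside Gnaq in the same way. None of the 9 genes passed adjustment over all genes. Bnip3 had the strongest relation, with r = -0.888 (exact permutation p = 0.00401, adjusted 0.102), rho = -0.833 and r = -0.841 within diet (exact permutation p = 0.00556). Without the pair of libraries farthest from the median its r was -0.937. Bnip3 was 97.2 CPM in Gαq CD 9, the library with most Gnaq, and 218 CPM in Gαq CD 10, the one with least.

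Bcl2l11 had r = -0.817 with Gnaq (exact permutation p = 0.0124, adjusted 0.137), rho = -0.733 (exact permutation p = 0.0311) and r = -0.831 within diet, but r = -0.644 without the pair farthest from the median (exact permutation p = 0.114). Its relation thus did not hold at that level without both of those libraries, while over all 15 alternatives run the p was under 0.05 in 14. Bcl2l1 had r = -0.742 (exact permutation p = 0.0289, adjusted 0.187), rho = -0.70 and r = -0.618 within diet (exact permutation p = 0.102), so that it did not hold within diet at that level. Without the farthest pair r was -0.862. Over the 15 alternatives the exact permutation p of Bcl2l1 was under 0.05 in only 8, and 6 of the fits that left out 1 library lost that level. Bcl2 alone of the 4 had a positive sign, with r = 0.727 (exact permutation p = 0.0291, adjusted 0.188), rho = 0.783, r = 0.625 within diet (exact permutation p = 0.0378) and r = 0.860 without the farthest pair. Over the 15 alternatives the exact permutation p of Bcl2 was under 0.05 in 12. The other 4 gave r = 0.581 for Bax, 0.099 for Bak1, -0.175 for Bbc3 and -0.476 for Mcl1 (exact permutation p from 0.0966 to 0.792).

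**Figure D4:**
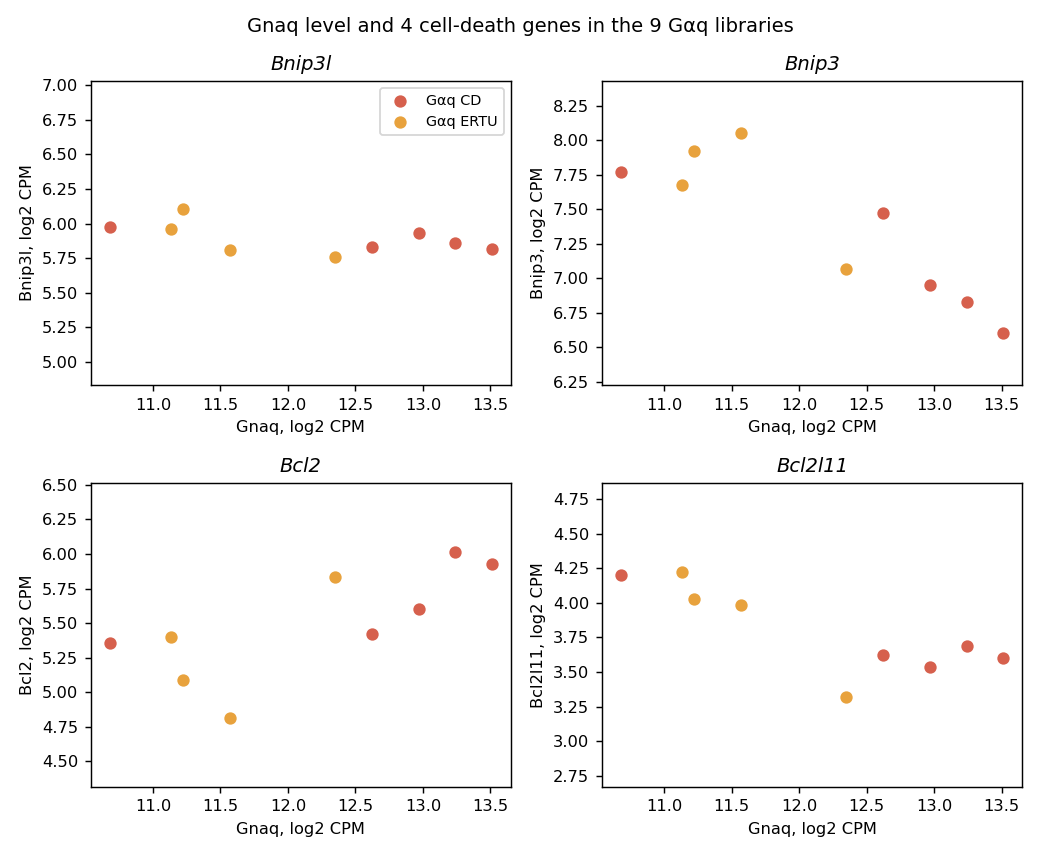
Log2 CPM of Bnip3l, Bnip3, Bcl2 and Bcl2l11 (vertical, the same span of log2 units in each panel) against log2 CPM of Gnaq in the 9 Gαq libraries, coloured by diet. Bnip3l is nearly level (slope -0.061), Bnip3 and Bcl2l11 are lower where Gnaq is higher, and Bcl2 is higher.

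The way the 9 genes vary between libraries of the same group was described by the correlation of their deviations from the group means in log2 CPM over all 18 libraries, which share their library preparation and scaling. Bnip3 and Bcl2 ran opposite to each other (r = -0.85, rho = -0.88), as did Bcl2 and Bcl2l1 (r = -0.70) and Bnip3 and Bax (r = -0.66). Bnip3 and Bcl2l1 ran together (r = 0.81, rho = 0.81). Among 13098 genes ordered from most to least like Bnip3, Bcl2l1 stood at 152, Bax at 12403 and Bcl2 at 13055. By likeness to Bcl2, Bcl2l1 stood at 12632. Each of these pairs was thus exceeded by other genes. Bnip3 and Bnip3l, the related pair, had r = 0.44, and 0.30 without the pair of libraries whose Bnip3 lay farthest from its group mean. WT ERTU 11 and 14, the libraries highest in Bnip3 in their group, were also high in Bcl2l1 and low in Bcl2 for that group. WT CD 2 and Gαq ERTU 20 were highest in Bnip3 in their groups and low in Bcl2, but not high in Bcl2l1. Their deviations in Bcl2l1 were -0.16 and -0.008.

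**Figure D5:**
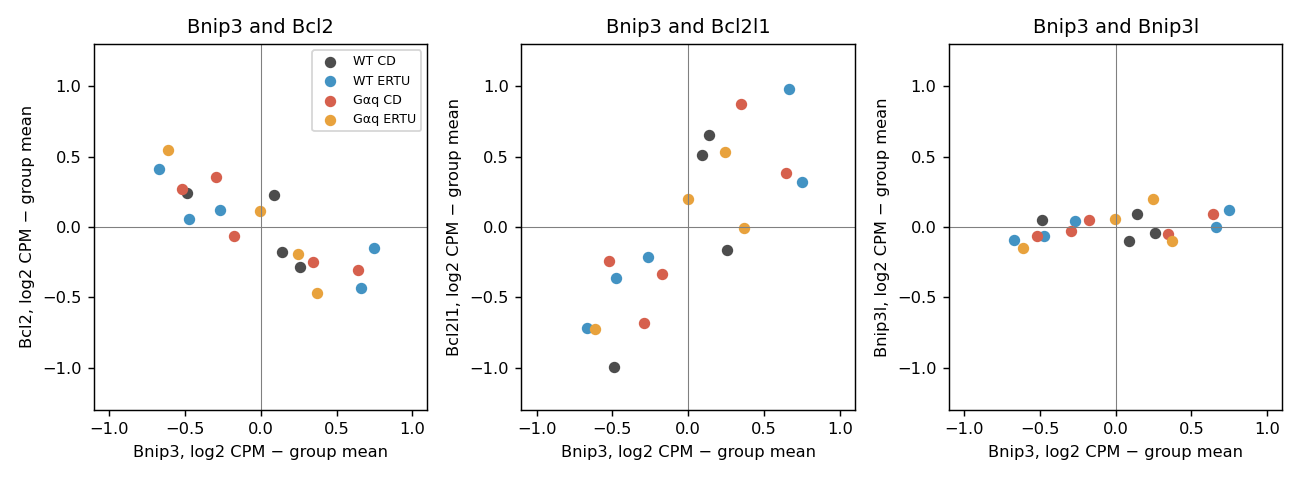
Deviation of log2 CPM from the group mean for Bcl2, Bcl2l1 and Bnip3l (vertical) against that of Bnip3 (horizontal), 1 point per library, 18 libraries coloured by group. Bcl2 falls (r = -0.85) and Bcl2l1 rises (r = 0.81) as Bnip3 rises, and Bnip3l moves little.

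The genes whose pattern was most like that of Bnip3l, by Pearson's r of the same deviations over 18 libraries among 13098 genes, were Dnajc19-ps (r = 0.896), Tmem234 (0.894), Tmem242 (0.889), Rwdd1 (0.889) and Gm14586 (0.888). For 3 other members the most similar gene, looked up after their values were seen, was Gm6532, the copy named above, for Bnip3 (r = 0.984), Ccnd2 for Bcl2 (r = 0.898) and Fkbp5 for Bcl2l1 (r = 0.965).

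The wider BCL2 family was measured with 16 further genes, of which 10 could be tested. By genotype, with the background of 19.6% given above, 2 rose, 1 fell and 7 were not called (30% called). The survival gene Bcl2l2, which encodes BCL-W, rose (log2 fold change 0.26 ± 0.05, adjusted p = 0.00109), as did Bid, a BH3-only gene whose product is cut by caspase 8 (0.56 ± 0.17, adjusted p = 0.021). Bcl2l13, which encodes a BCL2-like mitophagy receptor, fell (-0.37 ± 0.07, adjusted p = 5.28e-04). The median over the 10 was 0.03, beside 0.0038 over all genes. The Bcl2a1 genes and Bcl2l10 were among the 6 too low to test, with at most 0.609 CPM for the Bcl2a1 genes.

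Downstream of the mitochondrial pore, 1 of 16 genes of caspases, apoptosome and their inhibitors rose and 3 fell (25% called, near the 19.6% of all genes). Casp9, the caspase started by the apoptosome, rose (log2 fold change 0.21 ± 0.07, adjusted p = 0.0431). Aifm1 (-0.45 ± 0.07, adjusted p = 6.7e-05) and Endog (-0.41 ± 0.08, adjusted p = 8.75e-04), both of which encode mitochondrial proteins with a role in respiration or mitochondrial DNA as well as in cell death, fell. The protease gene Htra2, the third to fall, had a log2 fold change of -0.32 ± 0.06. Of 11 tested genes of death receptors and necroptosis none was called, and the smallest p was that of Tnfrsf1a (0.20 ± 0.08, adjusted p = 0.0869).

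Mitophagy receptors and the PINK1-Parkin pathway had 16 tested genes, of which 1 rose and 6 fell (43.8% called, beside 19.6% of all genes), with a median log2 fold change of -0.21 beside 0.0038 over all genes. Ulk1, the kinase that starts autophagy (-0.67 ± 0.11, adjusted p = 2.14e-04), and Bcl2l13, counted in the wider family too, fell with the smallest p. Pink1, Phb2, Pgam5 and Optn also fell, from -0.43 to -0.28. Fundc1, a mitophagy receptor of the outer membrane like Bnip3 and Nix, rose (0.24 ± 0.08, adjusted p = 0.037). Among 10 genes of the permeability transition and mitochondrial channels, Tspo rose (0.51 ± 0.10, adjusted p = 0.00106), Vdac1 (-0.29 ± 0.07, adjusted p = 0.00437) and Ppif, which encodes cyclophilin D (-0.31 ± 0.10, adjusted p = 0.0371), fell, and 7 were not called (30% called).

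Of 14 genes of p53 and its targets 2 were called (14.3%, below the 19.6% of all genes): Perp (0.41 ± 0.09, adjusted p = 0.00166) and Phlda3 (0.61 ± 0.15, adjusted p = 0.006) rose and none fell. Of 19 tested genes of HIF and its targets, 3 rose and 5 fell (42.1% called in either direction, beside 19.6% of all genes). Hif1a (0.55 ± 0.09, adjusted p = 9.4e-05) and Adm (0.49 ± 0.11, adjusted p = 0.00328) had the smallest p of those that rose, while Pdk1 (-0.36 ± 0.07, adjusted p = 7.96e-04) and Epas1, which encodes HIF-2α (-0.34 ± 0.09, adjusted p = 0.00677), had the smallest p of those that fell. By size the largest fall was that of Egln3, a HIF prolyl hydroxylase gene named after its value was seen (-0.85 ± 0.23). Bnip3, itself a HIF target and not counted in this list, also fell. Of 15 FoxO and stress regulators 4 were called (26.7%, beside 19.6% of all genes). Ddit3, which encodes CHOP (0.35 ± 0.09, adjusted p = 0.0114), and Prkca (0.43 ± 0.12, adjusted p = 0.0137) rose. Foxo4 (-0.25 ± 0.07, adjusted p = 0.0144) and Foxo1, whose product can turn on Bcl2l11 (-0.41 ± 0.14, adjusted p = 0.0472), fell. Foxo3 was not called (-0.27 ± 0.14, adjusted p = 0.194). The part of these regulators in the level of Bcl2l11 was not tested. In the comparison of diets none of the genes of these lists was called.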

How the data were processed

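LV RNA from 18 mice was measured, 1 library per mouse. The authors aligned 100-base read pairs of poly(A)-selected libraries to mouse build mm10 with STAR (2.6.0c) and counted uniquely aligned proper pairs per nuclear gene with featureCounts (Subread 1.6.2), and the deposited table holds these raw counts. Another deposited table has values on a log2-like scale, made by the authors with the variance-stabilizing transformation of DESeq2, and was used only as an alternative for the relations to Gnaq. Of 55450 gene IDs, 55190 (99.5%) matched GENCODE M21 (GRCm38), which gave symbols, positions and exon lengths.

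Tests used edgeR 4.0.16 in R 4.3.3 (filterByExpr, TMM, quasi-likelihood F test, Benjamini-Hochberg adjustment over 16270 genes, threshold 0.05). Untested genes accounted for 0.0906% of counts. Genotype and diet came from a model with both factors, and the other 5 comparisons from a model with 1 mean per group. The log2 CPM used a prior count of 2. Relations to Gnaq were tested by 2-sided exact permutation over the 9 Gαq libraries (n = 9), which share transgene and scaling, and adjusted over all genes, although the plan had been to adjust over the 9 genes alone. Confidence intervals are at 95%.

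The 9 genes, the gene and marker lists and the tests were chosen with earlier results of these data known. Named genes are the 9 and Gnaq, up to 2 risen and 2 fallen genes per list with the smallest adjusted p by genotype (or the 1 with the smallest p where none was called), and the 5 genes most like Bnip3l. The other genes named were chosen after their values were seen. Scripts were tested on simulated data. Alternatives were median-of-ratios factors, no filter, a mean CPM of at least 1, 4 group means, only the groups compared, DESeq2 1.42.0, limma 3.58.1 voom, each library left out and, chosen after seeing the data, sums with near-identical copies. For the relations, CPM, the deposited values and centring within diet were also used. The labels name no batch. Each library is from a separate heart, and all 18 libraries of the count table were used. The column numbers have gaps, running 1, 2, 4 and 5 in WT CD and 16, 17, 18 and 20 in Gαq ERTU. Whether hearts were dropped before the table was made cannot be told from it.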

Additional observations from a re-analysis of the deposited data

Results flagged for a closer look

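In 40 groups of values (the 9 genes and Gnaq in 4 groups), 2 held a library whose gap to its nearest neighbour exceeded the 95% critical value of Dixon's ratio, which is as many as the 2 that chance would give. Both were values of Bcl2l11. Among WT CD, library 1 had 21.9 CPM beside 18.52 to 19.03 CPM in the other libraries (ratio of gap to range 0.852). Among Gαq CD, library 10 had 18.3 CPM beside 11.5 to 12.8 CPM in the others (ratio 0.811), and that library also had the least Gnaq of the Gαq libraries, at 1641 CPM. The part of the transgene level in that value was not tested.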

How the results depend on the processing

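No paired analysis was possible because the column numbers run over the whole table, so the groups share no replicate number and no replicate block could be fitted. No result reversed under any alternative. The number of the 9 genes called on CD was 3, and ran from 1 to 3 over fits that left out 1 library, being 1 without WT CD 1, 2 or 4 or Gαq CD 9. The number of the other 8 genes with an exact permutation p under 0.05 for r with Gnaq was 4, and ran from 2 to 4, being 2 without Gαq CD 7, Gαq CD 9 or Gαq ERTU 16. Centring within diet took the relation of Bnip3l to Gnaq from r = -0.566 to r = -0.597 and its exact permutation p under 0.05, a level that 15.8% of all genes reached on that scale, with none past adjustment. The smallest exact permutation p possible on that scale was 3.47e-04, which limits what can pass adjustment. Without centring, fits that left out 1 library gave Bnip3l an r from -0.675 to -0.498. Leaving out the pair farthest from the median Gnaq level gave -0.445. The count by genotype was 3 or 4, that on ERTU was 1, and those by diet, ERTU in each genotype and interaction were 0 under every alternative run.

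Over 25 alternatives, Bcl2 by genotype ran from 1.67 to 1.83 (log2), Bak1 from 0.25 to 0.29 and Bcl2l11 from -0.51 to -0.39, all called in each. Bnip3 was called in 13 of 25 and ran from -0.70 to -0.46, and Bnip3l in none, with 0.065 to 0.130. Bak1 on CD was also not called with no filter on low counts (adjusted p = 0.0709) or with only the groups compared (adjusted p = 0.0627). Of 1566 recomputed log2 fold changes 43 had the opposite sign, and none of those was called. The cause of these changes was not tested. The relations rest on 9 libraries, and Bbc3, with 42 to 128 counts, is the gene with the least depth.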
